A study of Drosophila melanogaster with 12 samples.

Results

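Ovaries of Drosophila melanogaster females in which Sxl was knocked down by RNA interference (RNAi) were compared with ovaries that received RNAi against mCherry. The 6 libraries, 3 titled for each RNAi, were taken by their titles from a series of 12, whose other groups are ovaries and testes of bam mutants without RNAi. All 4 groups carry mutations in bam, so the controls lack normal bam function too. Gonads came from flies 1 to 3 days old raised at 25 °C, ovaries from virgin females, with 3 biological replicates a genotype. mCherry encodes a red fluorescent protein of non-fly origin. The sources used here give neither the bam alleles nor the RNAi lines, driver and targeted cell type, so the knockdown cannot be assigned to germ cells or to somatic cells.

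Sxl encodes an RNA-binding protein made in females, where it directs splicing and translation of its targets, including its own RNA and, in the soma, tra and msl-2. In the germline it is needed for female identity, and ovaries that lose it there can form germ cell tumours that express male genes. Loss of bam holds germ cells in an early state in both sexes, which lets ovaries and testes be compared at a like stage. CG15930, the gene also named Tdrd5l, encodes a Tudor-domain protein of the male germline. These are bulk measurements, in which fewer cells of a type and less RNA per cell cannot be told apart.

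Levels are counts per 1000000 assigned reads (CPM), scaled over the 12 libraries, and are given in the order of replicates 1, 2 and 3. Fold changes are Sxl RNAi over mCherry RNAi on the log2 scale with their standard error (SE), and adjusted p-values are from edgeR's quasi-likelihood test with Benjamini-Hochberg adjustment over all 10059 genes tested, unless DESeq2 is named. A gene is said to rise or fall where this adjusted p was under 0.05.

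Assigned reads numbered 21501840 to 25097969 in the mCherry RNAi libraries and 16570573 to 23411755 in the Sxl RNAi libraries. In both groups 1 library stood apart. On the first principal component, with 41.7% of the variance, Sxl RNAi replicate 1 lay at 46.0 and mCherry RNAi replicate 2 at 16.4, and the other 4 libraries between -24.5 and -6.20. The second component, with 24.5%, separated the groups, at 10.6 to 22.6 for mCherry RNAi and -20.9 to -14.8 for Sxl RNAi. Genes of the germ cell list were present in every library, with a summed level of 2344 to 3350 CPM in mCherry RNAi and 2191 to 3116 CPM in Sxl RNAi ovaries. This sum lacks vas and nos, which were not matched to the counts, so it is no full measure of germ cells. Follicle cell, yolk and eggshell genes were also present in every library (4212 to 5618 and 3969 to 4302 CPM). Muscle genes summed to 15938 to 19757 and 14236 to 23617 CPM, with the highest value of each group in its library that stood apart. Sxl RNAi replicate 1 also held RNA of 11 digestive enzyme genes, picked after their values were seen, at a summed 2934 CPM against 10.7 to 167 CPM in the other 5 libraries. Without this library 19 genes passed the threshold, 15 of them among the 21 given below, and CG10802, Cmtr1, CG10702, CG5568, CG7755 and EMC2A did not pass.

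Sxl itself stood at 494, 511 and 536 CPM in mCherry RNAi and at 139, 199 and 224 CPM in Sxl RNAi ovaries. The groups did not overlap. Counts per gene do not separate the female and male splice forms of Sxl. The log2 fold change was -1.44 (SE 0.18, adjusted p = 0.0466). Ovaries without RNAi held 475, 463 and 377 CPM and testes 64.7, 47.3 and 124 CPM, so every Sxl RNAi library lay above every testis and below every other ovary. The call of Sxl was lost in 7 of 14 alternative settings, with values between -1.59 and -1.27.

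In all, 12 genes rose (0.119% of the genes tested) and 9 fell (0.0895%). At an unadjusted p under 0.05 these numbers were 568 and 604, and the CPM ranges of the groups did not overlap for 1788 genes (17.8%). DESeq2 called 155 genes higher (1.38% of the 11209 it gave an adjusted p) and 141 lower (1.26%), including all 21. The calls depended on single libraries: 3 and 4 genes passed without mCherry RNAi replicates 1 and 3, and 3 each without replicates 2 and 3 of the knockdown. Without both libraries that stood apart, there were 206 higher and 160 lower genes, all 21 among them. The plot of all genes tested shows how few red points there are beside the DESeq2 calls.

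**Figure D1:**
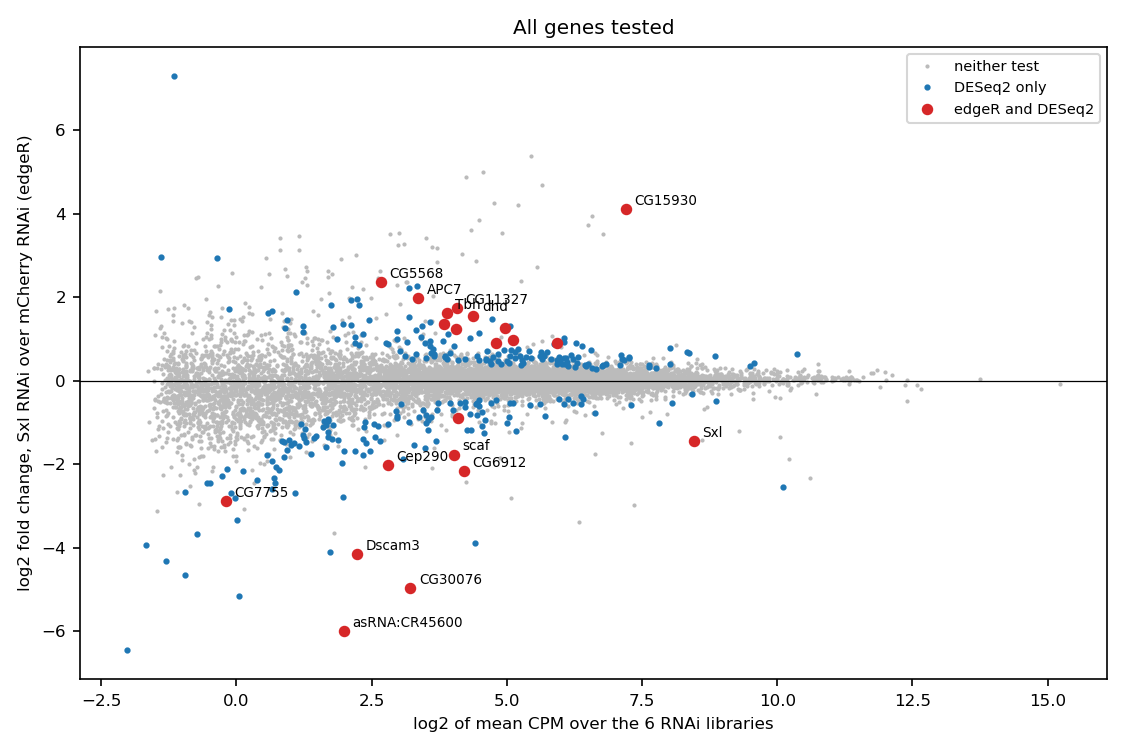
Each point is 1 of 10059 genes, with the log2 of its mean CPM over the 6 RNAi libraries on the x axis and its edgeR log2 fold change, Sxl RNAi over mCherry RNAi, on the y axis; red points passed both tests and blue points DESeq2 alone. CG15930 at 4.11 is the highest of the red points and asRNA:CR45600 at -6.0 the lowest.

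CG15930 (FBgn0029754; X chromosome, 5315130 to 5317295 of BDGP6, minus strand) showed the largest rise among the called genes. It stood at 13.3, 17.1 and 18.5 CPM in mCherry RNAi and at 224, 280 and 334 CPM in Sxl RNAi ovaries. No Sxl RNAi library came near the control range, and none reached the 425, 487 and 395 CPM of testes. The log2 fold change was 4.11 (SE 0.20, adjusted p = 0.000961), a 17.3-fold rise, and the mean level was 64.1% of that in testes. CG15930 passed in all 14 alternative settings.

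Other genes that rose are more abundant in testes than in ovaries. CG11327, an autosomal gene on chromosome arm 2L, went from 7.24, 7.60 and 8.59 CPM to 23.6, 26.8 and 27.5 CPM (1.74, SE 0.12, adjusted p = 0.00548), against 89.2, 117 and 79.995 CPM in testes. The X-linked CG12728 went from 19.3, 18.6 and 17.1 CPM to 39.6, 46.9 and 45.5 CPM (1.27, SE 0.11, adjusted p = 0.0113), which is 77.6% of its mean in testes. In neither gene did the RNAi groups overlap, and in both the mCherry RNAi range overlapped that of ovaries without RNAi. The thioredoxin gene dhd, whose product is loaded into the egg and acts on sperm chromatin at fertilization, stood at 8.67, 11.3 and 11.9 CPM in mCherry RNAi and 33.4, 29.4 and 30.4 CPM in Sxl RNAi ovaries (1.56, SE 0.14, adjusted p = 0.0132). Its 3 groups of ovaries were all apart, with ovaries without RNAi between the RNAi groups at 16.2, 23.9 and 26.6 CPM, and testes highest at 77.7, 100 and 65.5 CPM.

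Several genes of known biochemical role rose without a sex difference past the threshold. APC7, a subunit of the anaphase-promoting complex that marks cell cycle proteins for destruction, stood at 4.11, 3.84 and 4.54 CPM and then at 14.2, 17.4 and 17.6 CPM (1.99, SE 0.16, adjusted p = 0.00809). Tbh, the enzyme that makes octopamine from tyramine, went from 7.62, 5.89 and 8.37 CPM to 19.6, 23.8 and 23.7 CPM (1.63, SE 0.17, adjusted p = 0.0242). Corp, reported to restrain p53, went from 8.79, 7.51 and 7.94 CPM to 19.9, 22.3 and 19.9 CPM (1.37, SE 0.13, adjusted p = 0.0150). In all 3 genes the Sxl RNAi libraries lay above every other ovary library. For APC7 and Corp the mCherry RNAi libraries also lay below every ovary without RNAi, and both genes passed in that comparison. In Sxl RNAi over ovaries without RNAi, APC7 and Tbh passed and Corp did not. Uros1, which encodes a heme synthesis enzyme, rose by 0.98 (SE 0.09, adjusted p = 0.0129) and was at 22.9 to 24.4 CPM in mCherry RNAi and 44.0 to 49.1 CPM in Sxl RNAi ovaries.

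The remaining genes that rose were Cmtr1, which methylates the mRNA cap (0.90, adjusted p = 0.0466), and 3 genes known by number, CG10802 (0.91, adjusted p = 0.0427), CG10702 (1.24, adjusted p = 0.0171) and CG5568 (2.37, adjusted p = 0.0391). CG5568 shares 208 exon bases with CG18586 on the same strand, which stood at 26.6 ± 4.05 against 13.1 ± 0.728 CPM (SD, n = 3; adjusted p = 0.0544), so the change of the pair cannot be told apart where they share reads. CG5568 was the exception among the 12 in that its Sxl RNAi range of 9.04 to 13.6 CPM overlapped the 6.67 to 12 CPM of ovaries without RNAi. Its mCherry RNAi libraries lay below both, at 1.49 to 2.41 CPM, as did those of 7 of the 12 genes, CG5568 included.

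Among the 9 genes that fell, CG30076 (chromosome arm 2R) stood at 16.1, 19.0 and 19.0 CPM in mCherry RNAi ovaries and at 0.476, 0.611 and 0.615 CPM in Sxl RNAi ovaries (-4.96, SE 0.19, adjusted p = 0.000337). The noncoding asRNA:CR45600 stood at 7.99, 6.91 and 8.68 CPM and at 0.0595, 0.163 and 0.112 CPM (-6.0, SE 0.34, adjusted p = 0.00185). Dscam3, a cell adhesion gene of the immunoglobulin class, stood at 9.84, 5.89 and 11 CPM and at 0.476, 0.448 and 0.559 CPM (-4.15, SE 0.33, adjusted p = 0.00809). For these 3 genes the mCherry RNAi libraries lay above all others: ovaries without RNAi held at most 0.294, 0.190 and 1.43 CPM, and testes at most 0.0604, 0.157 and 1.09 CPM. For Dscam3 the Sxl RNAi libraries also lay below every ovary without RNAi, the lowest of which held 0.749 CPM. CG6912, which shares 20 exon bases with asRNA:CR45600 on the same strand, and Cep290, a protein of the ciliary transition zone, were also highest in mCherry RNAi, with overlapping ranges in Sxl RNAi and ovaries without RNAi. CG6912 was at 27.1 to 32.4 CPM in mCherry RNAi, 5.31 to 9.40 CPM in Sxl RNAi and 5.06 to 7.49 CPM in ovaries without RNAi (-2.16, adjusted p = 0.0321). Cep290 was at 9.13 to 12.4, 2.40 to 3.45 and 2.30 to 4.47 CPM (-2.01, adjusted p = 0.0389).

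In scaf, which encodes a secreted serine protease homologue, the Sxl RNAi libraries stood apart instead. It was at 26.9, 20.7 and 27.8 CPM in mCherry RNAi, at 6.25, 8.35 and 7.44 CPM in Sxl RNAi, and at 28.7, 31.6 and 21.2 CPM in ovaries without RNAi (-1.76, SE 0.17, adjusted p = 0.0171). CG7755 was low throughout, at 1.43 to 1.70 CPM in mCherry RNAi, 0.168 to 0.238 CPM in Sxl RNAi and 2.06 to 2.89 CPM in ovaries without RNAi (-2.88, adjusted p = 0.0284). EMC2A, a subunit of the complex that inserts membrane proteins at the endoplasmic reticulum, fell from 20.6, 22.2 and 24.2 CPM to 11.9, 12.5 and 11.4 CPM (-0.89, SE 0.11, adjusted p = 0.0466). For EMC2A, ovaries without RNAi lay between the RNAi groups and overlapped neither, and neither RNAi group passed against them. Its paralogue EMC2B was at 21.0, 23.1 and 23.1 CPM and at 31.1, 28.8 and 28.8 CPM (0.41, SE 0.09, adjusted p = 0.187, and 0.0319 by DESeq2), and how reads shared by such paralogues were counted is not given in the sources used here.

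**Figure D2:**
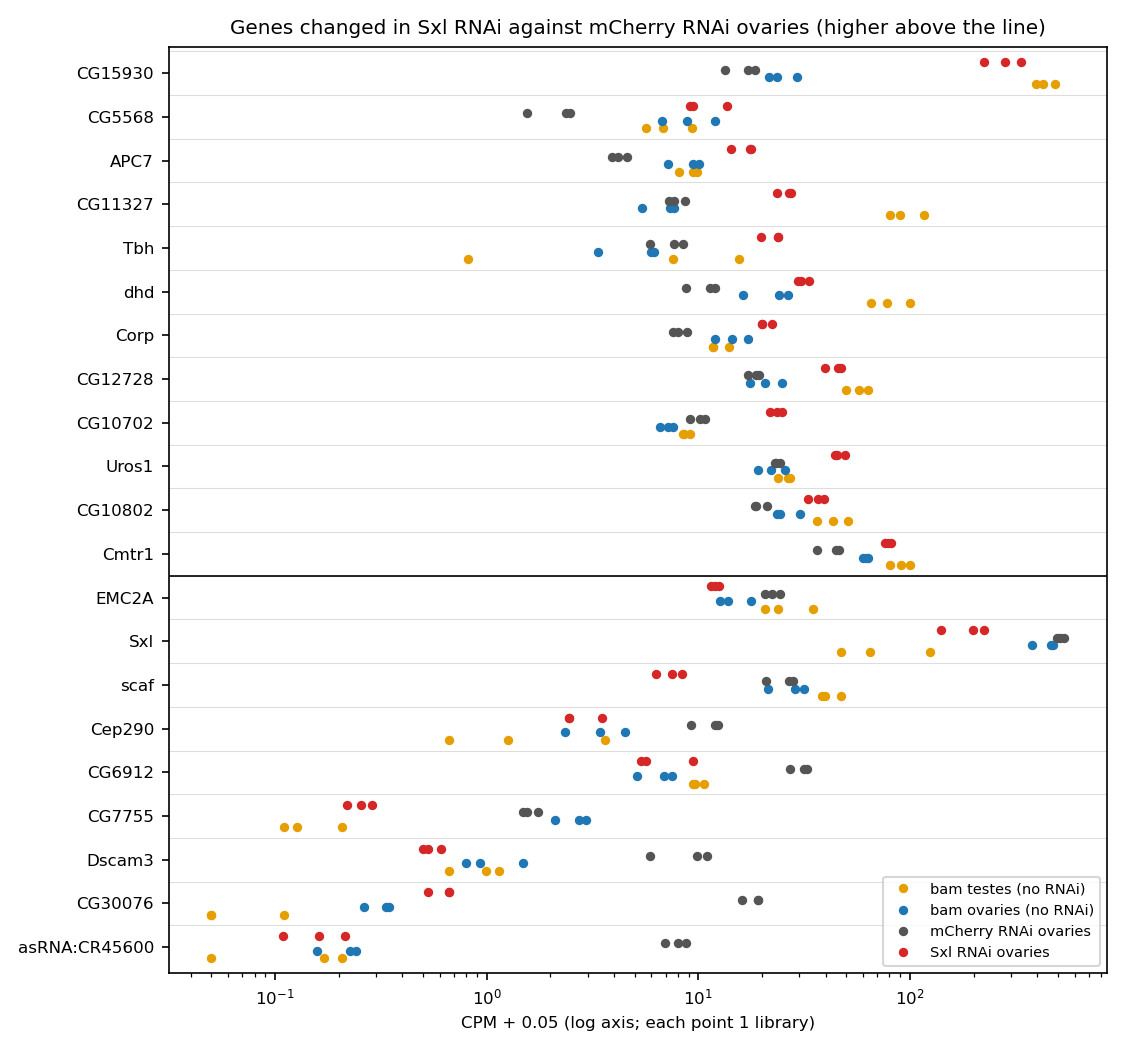
Each point is the level of 1 library, as CPM + 0.05 on a log axis, for the 12 genes that rose (above the line) and the 9 that fell, in all 4 groups of 3 libraries. For CG30076, asRNA:CR45600 and Dscam3 the mCherry RNAi points lie above all others, whereas for CG15930, CG11327 and scaf the Sxl RNAi points stand apart from both other groups of ovaries.

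These layouts were counted over all genes. Of the called genes 0 had overlapping RNAi groups, whereas 1788 of all tested genes (17.8%) were without overlap. That part of each layout was therefore met by the selection of the genes. The shares over all genes below are thus no like reference for the called genes. Of the 12 genes that rose, 11 had every Sxl RNAi library above every library of both other groups of ovaries, against 326 of all tested genes (3.24%), and 7 had every mCherry RNAi library below both other groups (353 genes, 3.51%). Of the 9 that fell, 5 had Sxl RNAi below both (362 genes, 3.6%) and 7 had mCherry RNAi above both (371 genes, 3.69%). By DESeq2, 84 of 153 higher genes that edgeR also tested had Sxl RNAi above both, and 71 had mCherry RNAi below both. For 137 lower genes these numbers were 65 and 68. Both comparisons with ovaries without RNAi share libraries with the knockdown comparison and are given only side by side. In mCherry RNAi over these ovaries 376 of 9940 genes were higher (3.78%) and 231 lower (2.32%), including 5 of the 9 that fell and 5 of the 12 that rose, in the opposite direction to the knockdown. In Sxl RNAi over these ovaries 333 of 9667 were higher (3.44%) and 245 lower (2.53%), including 7 of the 12 that rose and 3 of the 9 that fell. CG30076 and asRNA:CR45600, among those that fell, were not tested in Sxl RNAi over these ovaries. The RNAi and no-RNAi ovaries may differ in genetic background, which the labels do not describe, and the part of that in these values was not tested.

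The X chromosome held 9 of the 12 genes that rose and 1, Sxl, of those that fell, with 17.0% of all genes tested. Among genes that edgeR also tested, DESeq2 called 63 X-linked genes higher and 29 lower (3.70% and 1.70% of those with an adjusted p), against 88 and 106 autosomal genes (1.09% and 1.31%). The median log2 fold change was 0.050 over 1711 X-linked genes, of which 58.6% were above 0, and -0.0024 over 8127 autosomal genes, of which 49.6% were. The 9 genes lie in a stretch of 5.42 Mb that was chosen from their own positions. DESeq2 called 29 genes higher and 7 lower among the 410 tested there, and 34 and 22 among the 1301 tested on the rest of the X. The 29 include the 9 genes that set the limits of the stretch, so these numbers cannot show a local excess.

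Of 15 genes tested within 50 kb of CG15930, itself included, edgeR called CG15930 and dhd, and DESeq2 added TrxT. TrxT, the testis thioredoxin gene next to dhd, stood at 0.867, 1.28 and 0.916 CPM and at 3.27, 2.65 and 2.46 CPM, without overlap, and was called by DESeq2 (adjusted p = 0.0052) but not by edgeR (1.46, SE 0.28, adjusted p = 0.133). CG4198, which shares 61 exon bases with CG15930 on the other strand, was at 1.34 ± 0.0580 and 1.91 ± 0.239 CPM (SD, n = 3; 0.51, adjusted p = 0.484), and the library kit does not mark strand. On either side, snf, a spliceosome gene that also acts in Sxl splicing, and Sas10 gave 0.05 (SE 0.11) and 0.30 (SE 0.09, adjusted p = 0.291).

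**Figure D3:**
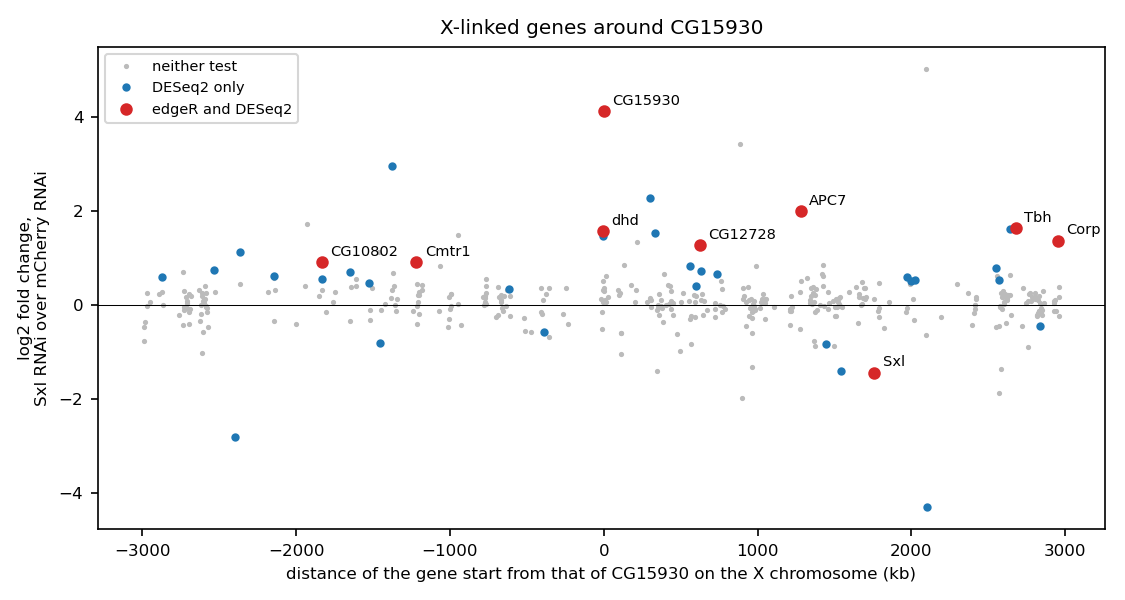
Each point is an X-linked gene tested, with the distance of its start from that of CG15930 in kb on the x axis, over 3 Mb to each side, and its log2 fold change on the y axis. The 8 red points above 0 are interspersed with grey points near 0, and Sxl is the red point below 0.

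The sex difference of the same genes was taken from bam testes against bam ovaries, libraries that the knockdown comparison does not use. In it 1594 of 9738 genes were higher in testes (16.4%) and 1592 lower (16.3%). Of the 12 genes that rose, 6 were higher in testes and 0 lower. Of the 9 that fell, 7 were tested, with 2 higher and 2 lower in testes. The larger DESeq2 sets did not share this direction: of 151 higher genes tested in both, 39 (25.8%) were higher and 41 (27.2%) lower in testes, and of 125 lower genes 20 (16%) and 39 (31.2%). Seen from the sex difference, 6 of 1371 testis-higher genes rose and 2 fell with Sxl RNAi, with a median log2 fold change of 0.012. Among the 223 that were higher in testes by over 3 on the log2 scale, CG15930 and CG11327 were the 2 that rose, none fell by edgeR, DESeq2 called 9 higher and 5 lower, and the median was 0.0058. Of the 285 lower in testes by over 3, none rose by edgeR and 1 fell, DESeq2 called 18 higher and 9 lower, and the median was 0.14.

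The difference between the effects was tested as a contrast over all 12 libraries, in which 2658 of 10382 genes passed (25.6%). For CG15930 the knockdown change and the sex difference were apart by -0.04 (SE 0.26, adjusted p = 0.943), for dhd by -0.32 (SE 0.29, adjusted p = 0.467) and for CG12728 by -0.17 (SE 0.20, adjusted p = 0.582), none past the threshold. CG11327 rose by less than its sex difference (-2.09, SE 0.24, adjusted p = 0.000104). Phf7, a chromatin reader of the male germline, was at 68.1, 56.8 and 79.9 CPM in mCherry RNAi and 81.6, 117 and 115 CPM in Sxl RNAi ovaries, and at 277 to 300 CPM in testes. Its groups did not overlap, its knockdown change did not pass (0.62, SE 0.18, adjusted p = 0.255), and it lay below its sex difference by 1.45 on the log2 scale (contrast -1.45, SE 0.23, adjusted p = 0.000781).

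**Figure D4:**
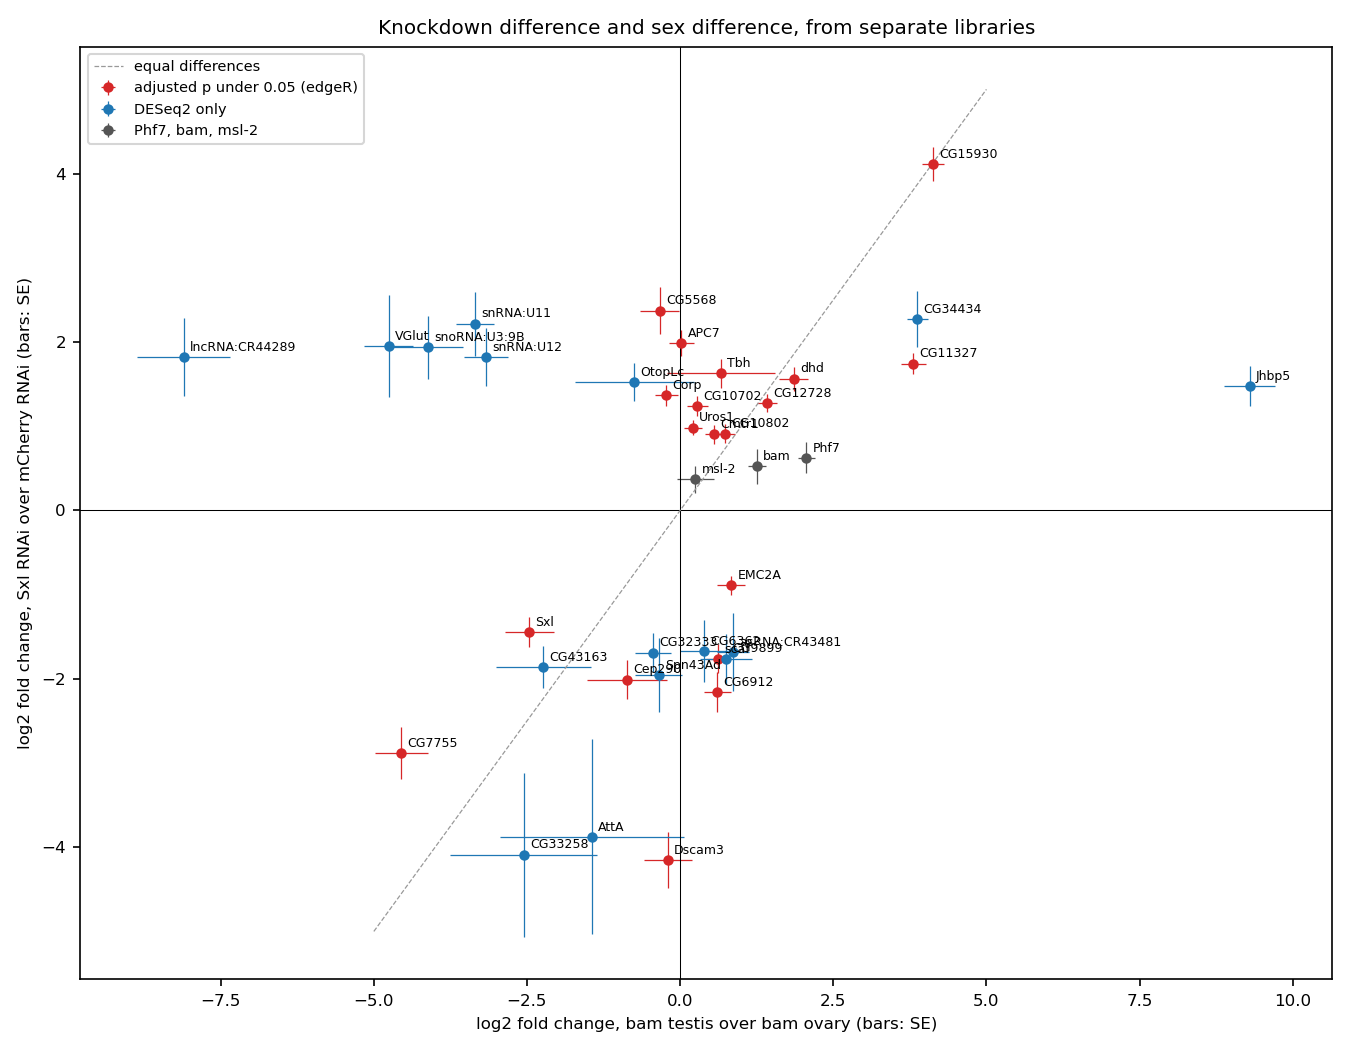
Each point is a gene, with its log2 fold change of bam testis over bam ovary on the x axis and of Sxl RNAi over mCherry RNAi on the y axis, both with SE bars; the dashed line marks equal differences. CG15930, at 4.12 and 4.11, lies on the line, CG11327 and CG34434 lie below it, and the small nuclear and nucleolar RNAs lie at upper left.

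Further genes were called by DESeq2 alone, and the 8 largest changes in each direction without overlap and with at least 5 CPM were taken. CG34434 (X chromosome) was at 3.24, 3.88 and 3.27 CPM and at 9.04, 20.9 and 20.0 CPM (2.27, SE 0.33, edgeR adjusted p = 0.0586), and at 37.4 to 49.3 CPM in testes. Jhbp5, a juvenile hormone binding protein gene, was at 12.1, 17.0 and 12.9 CPM and at 29.2, 34.3 and 52.3 CPM (1.48, SE 0.24, edgeR adjusted p = 0.0881), which is 0.387% of its mean in testes. OtopLc, an otopetrin family gene on the X, was at 3.59 to 5.50 and 11.8 to 16.4 CPM (1.53). VGlut, the vesicular glutamate transporter, and lncRNA:CR44289 were highest in Sxl RNAi replicate 1, the library that stood apart, at 12.9 and 13.0 CPM against at most 5.05 and 5.58 CPM in replicates 2 and 3.

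The U11 and U12 small nuclear RNAs, parts of the minor spliceosome, and a U3 small nucleolar RNA were also among these 8. snRNA:U11 was at 2.41, 4.65 and 2.75 CPM and at 8.57, 17.6 and 19.1 CPM (2.22, SE 0.38, edgeR adjusted p = 0.104), with ovaries without RNAi at 6.57 to 10.004 CPM. The classes were then counted, a choice made after these values were seen. Of 53 small nucleolar RNA genes tested, 44 were above 0, with a median of 0.60, and DESeq2 called 4 higher and none lower. Their summed level was 45.6, 53.6 and 50.6 CPM in mCherry RNAi, 64.8, 88.4 and 82.8 CPM in Sxl RNAi and 67.7, 76.8 and 82.4 CPM in ovaries without RNAi. Among ovaries the mCherry RNAi libraries were thus the low ones, and testes were lower still, at 27.8, 22.4 and 31.2 CPM. Of 8 small nuclear RNA genes, 6 were above 0 with a median of 0.87, and none of either class passed by edgeR. These RNAs mostly lack a poly(A) tail and the RNA was labelled polyadenylated, so their levels also carry how well tailed RNA was selected, the part of which was not tested.

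The 8 lower ones were CG33258, an attacin gene of the antibacterial response, the serpin Spn43Ad, CG43163, CG9899, CG32333, asRNA:CR43481 and CG6362. CG43163 was at 14.9, 9.90 and 15 CPM and at 4.28, 2.85 and 3.80 CPM (-1.86, SE 0.25, edgeR adjusted p = 0.0551). Ovaries without RNAi held 10.5 to 16.0 CPM, overlapping the mCherry RNAi libraries and not the Sxl RNAi libraries. The attacin gene was uneven, at 6.90, 94.9 and 18.2 CPM in mCherry RNAi, and shares reads with a near-identical copy.

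Gene lists were described by counts and by their median, beside a median of 0.0067 over all genes tested. In sex determination, Sxl was the 1 of 17 genes tested that passed. The splicing target tra was at 30.1, 24.5 and 22.2 CPM and at 22.8, 22 and 21.1 CPM, overlapping (-0.21, SE 0.14, adjusted p = 0.647), and msl-2 was at 14.0 to 16.4 and 15.8 to 22.6 CPM, also overlapping (0.37, SE 0.16, adjusted p = 0.453). Counts per gene show neither the splice forms nor the translation of tra and msl-2. In male dosage compensation, which raises output of the single X in males, none of 10 genes passed and the median was 0.20. The acetyltransferase gene mof was at 63.4, 50.4 and 67.4 CPM and at 91.9, 115 and 112 CPM without overlap (0.83, SE 0.15, adjusted p = 0.113, and 0.000258 by DESeq2), above its 44.1 to 56.2 CPM in testes. The noncoding roX1 RNA stayed low, at 1.78 to 2.32 CPM in Sxl RNAi ovaries against 135 to 156 CPM in testes (1.11, SE 0.36, adjusted p = 0.311).

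For germ cells, CG15930 was the 1 of 9 early male germline genes that passed, a list drawn up knowing this gene. Its member tut, a translational partner of bam in males, was at 13.9, 14.0 and 14.6 CPM and at 19.5, 20.2 and 20.4 CPM (0.51, SE 0.10, adjusted p = 0.133, and 0.00619 by DESeq2). Residual RNA of bam itself was at 5.77, 4.10 and 5.54 CPM and at 6.78, 8.47 and 6.71 CPM, below the 21.1 to 27.3 CPM of testes (0.52, SE 0.21, adjusted p = 0.410). Neither of the tested groups of germ cell identity (0 of 16, median 0.02) or piRNA pathway genes (0 of 30, median -0.08) had a member past the threshold. Both groups lack vas, and the first also lacks nos, since these were not matched to the counts. The piRNA factor rhi, which marks piRNA source loci, was at 54.6 to 61.2 and 31.4 to 43.3 CPM, without overlap (-0.56, adjusted p = 0.194, and 0.0324 by DESeq2). Of 22 oocyte genes dhd passed. The maternal tubulin alphaTub67C was at 6.22, 5.16 and 7.20 CPM and at 15.9, 17.1 and 13.0 CPM (1.32, SE 0.18, adjusted p = 0.0582), and osk, which directs germ plasm assembly, at 3.36, 1.75 and 3.49 CPM and at 0.476, 0.855 and 1.06 CPM (-1.82, SE 0.41, adjusted p = 0.187). These changes went in opposite directions in groups that did not overlap, and DESeq2 called both genes.

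Of later male stages, none of 13 spermatocyte genes passed, with a median of 0.09. DESeq2 called 2 of them higher, Taf12L and aly (0.60, edgeR adjusted p = 0.178), and 1 lower, kmg. Over all genes it called 1.38% higher and 1.26% lower. Taf12L, a testis-specific TAF, was at 0.641, 1.07 and 0.698 CPM and at 2.38, 4.60 and 3.47 CPM (2.13, SE 0.36, adjusted p = 0.0955), and kmg, a spermatocyte zinc finger gene, was lower (-1.74, adjusted p = 0.219). For kmg mCherry RNAi was the high group, with raw counts of 156, 94 and 48. Sxl RNAi held 26, 20 and 22 counts of kmg, and ovaries without RNAi 25, 17 and 18. Of 19 spermatid genes in the files 2 passed the filter on low counts, and 5 had no count in any of the 6 libraries. Meiotic genes had 0 of 18 past the threshold and a median of -0.06.

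Of the lists that held a called gene, most did not move with it. APC7 was the 1 of 14 genes of its complex that passed, and the median of the complex was 0.010. Corp was the 1 of 21 p53 and cell death genes (median 0.0063), Cep290 the 1 of 14 ciliary genes (median -0.12) and Tbh the 1 of 12 octopamine genes (median 0.063). Dscam3 was the 1 of 13 adhesion genes (median 0.10). Cmtr1 was the 1 of 13 in a list that joins cap methylation, RNA methylation and splicing partners of Sxl (median -0.047). Dscam2, the relative of Dscam3, was at 0.555 to 1.35 CPM in mCherry RNAi and at most 0.0595 CPM in Sxl RNAi (adjusted p = 0.0846, and 0.00721 by DESeq2). As for Dscam3, mCherry RNAi was the high group, with raw counts of 29, 13 and 31 against 2, 1 and 0 in ovaries without RNAi. The median of 10 genes of the endoplasmic reticulum complex was 0.21, with EMC2A below 0.

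Heat shock and chaperone genes had the lowest median of the 34 lists, -1.34 over 17 genes, of which 16 were below 0 and none passed. Hsp23, a small heat shock gene, was at 3452, 1833 and 352 CPM in mCherry RNAi and at 471, 240 and 252 CPM in Sxl RNAi (-2.55, SE 0.76, adjusted p = 0.272). The summed level of the list was 37888, 20174 and 12969 CPM in mCherry RNAi and 17006, 12712 and 12322 CPM in Sxl RNAi. The highest sums were those of mCherry RNAi replicates 1 and 2, and without replicate 1 the median of the list was 0.02. The members lowest in p kept their sign over the 14 alternatives. Hsp23 lay between -3.04 and -1.74, Hsp26 between -3.13 and -1.19 and Hsp27 between -1.71 and -0.67. Hsp60A, the 1 member above 0, lay between 0.31 and 0.42. Hsp23 and Hsp60A passed with DESeq2 alone.

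Somatic and other cell types gave few calls. None passed among 19 follicle cell genes (median 0.08), 19 escort, cap and terminal filament genes (0.09), 13 hub and cyst genes (0.19), 20 muscle genes (0.03), 12 hemocyte genes (0.12) and 13 fat body genes (-0.51). The yolk protein gene Yp1 was at 486, 630 and 513 CPM and at 414, 378 and 367 CPM, without overlap (-0.48, SE 0.13, adjusted p = 0.234), and the Hedgehog effector ci at 93.9, 104 and 132 CPM and at 157, 183 and 159 CPM, also without overlap (0.61, SE 0.14, adjusted p = 0.188). DESeq2 called both. The plot of all lists shows each called gene with the other members of its list.

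**Figure D5:**
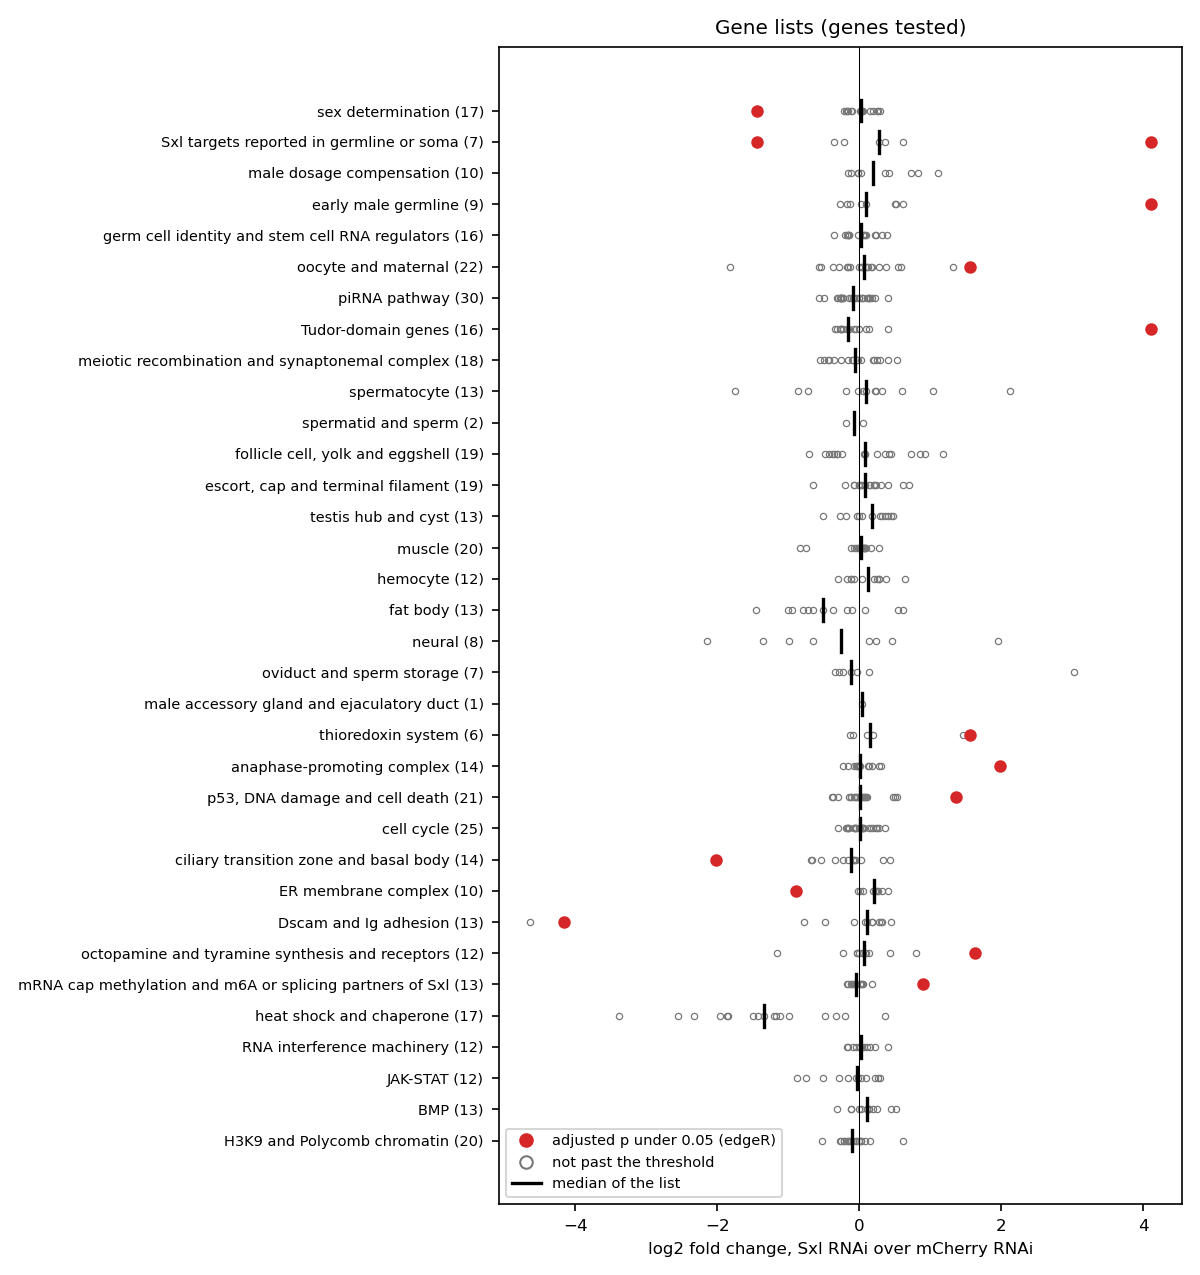
Each row is a gene list with its number of tested genes, each circle a gene's log2 fold change, Sxl RNAi over mCherry RNAi, and each bar the list's median; red points passed edgeR's threshold. The heat shock row is the one with a median near -1.34, and most rows hold 0 or 1 red point.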

How the data were processed

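Polyadenylated RNA of dissected gonads was sequenced from 200 ng per library with an Illumina TruSeq v2 kit, per the labels' protocols. The authors deposited raw counts, 1 whole number per gene and library. The submitters' processing notes name HTSeq 0.9.1, TopHat2 2.1.1, Bowtie2 2.2.9, DESeq, FastQC and the build BDGP6, and no source used here gives the annotation release or how strand and overlaps were treated. HTSeq's summary lines, 12.0% to 17.1% of a library, were left out. Symbols matched 17253 of 17559 gene IDs, and positions came from an Ensembl annotation of BDGP6.

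Replicates of a group differed beyond counting noise. For every comparison, edgeR 4.0.16 was run on the 6 libraries concerned (robust quasi-likelihood F test after filterByExpr and TMM scaling) in R 4.3.3, after a test on simulated data, and genes passed at an adjusted p under 0.05 (Benjamini-Hochberg); the SE is the log2 fold change divided by the square root of F. The contrast of effects used all 12 libraries. DESeq2 1.42.0, other scalings and filters, all libraries in one fit, the replicate block and leaving out each replicate were alternatives; leaving out both libraries that stood apart was added after the data were seen.

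Named genes were Sxl, CG15930, Phf7, bam and msl-2, every gene past the threshold, the 8 largest changes in each direction that DESeq2 alone called, without overlap of CPM and with at least 5 CPM, and from each list the members lowest in p, at most 4. Gene IDs were found for 542 of 594 list entries. The comparison, lists and genes were chosen with earlier results of these data known. TrxT and CG4198 were named as neighbours, and digestive enzyme and RNA classes after their values were seen.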

Additional observations from a re-analysis of the deposited data

Results flagged for a closer look

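The change with Sxl RNAi was set against the sex difference for Sxl, CG15930, Phf7, bam, msl-2 and the genes past the threshold. The test was a contrast over all 12 libraries with edgeR, in which 25.6% of all genes passed. Of the genes so examined 12 passed, and the other named genes were not considered here. All values are the knockdown change minus the sex difference on the log2 scale. Apart from Phf7, the 12 genes were chosen for their change in the same RNAi libraries, so their contrast is not independent of that choice. It was positive for CG5568 (2.70, SE 0.42, adjusted p = 0.000788), APC7 (1.95, SE 0.25, adjusted p = 0.000196), Corp (1.58, SE 0.22, adjusted p = 0.000372), CG10702 (0.94, SE 0.18, adjusted p = 0.0031) and Uros1 (0.75, SE 0.17, adjusted p = 0.00725), which rose with Sxl RNAi and had no sex difference past the threshold. It was negative for CG11327 (-2.09) and Phf7 (-1.45), whose sex difference was the larger one. For scaf (-2.39, SE 0.26, adjusted p = 5.66e-05) and EMC2A (-1.75, SE 0.28, adjusted p = 0.000857), genes higher in testes were lower in Sxl RNAi than in mCherry RNAi. In scaf the Sxl RNAi libraries stood apart, whereas EMC2A in ovaries without RNAi lay between the RNAi groups and overlapped neither. The values of asRNA:CR45600 (-5.38), Dscam3 (-3.95) and CG6912 (-2.78) belong to genes for which the mCherry RNAi libraries stood above all others.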

How the results depend on the processing

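The 21 genes past the threshold became 296 with DESeq2, 39 with no filter, 43 in the fit to all 12 libraries, 366 without both libraries that stood apart, and between 3 and 23 when 1 replicate was left out. Relative log expression and upper-quartile scaling gave 20 and 23, and a filter at 1 CPM gave 21. The replicate block gave 3 (1 higher, 2 lower); same-numbered libraries had correlations of their deviations of -0.18, -0.35 and 0.02, so the numbers were not taken as pairs. CG15930 lay between 3.96 and 4.28 and passed in all 14 alternatives, as did CG30076. Sxl gave -1.46 in the fit to all libraries (adjusted p = 0.0872), -1.47 with the replicate block (adjusted p = 0.210), and -1.59 to -1.27 with a replicate left out (adjusted p = 0.0365 to 0.238). The cause of these shifts was not tested.

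The sex comparison, with 3186 genes, gave 1696 with the replicate block and 1924 to 3539 with a replicate left out. For mCherry RNAi over ovaries without RNAi, the 607 genes became 1261 with DESeq2, 93 with the block and 153 to 388. For Sxl RNAi over these ovaries, 578 became 1162, 200 and 180 to 605.

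A sign turned only in values that had not passed. With a replicate left out, gdl ranged from -0.11 to 0.20, Act79B from -1.80 to 0.46, Act88F from -1.27 to 0.78, TpnC73F from -0.15 to 0.31, Send1 from -0.96 to 5.08 and Est-6 from -0.60 to 0.39. Without both libraries that stood apart they were Act88F (0.25), TpnC73F (-0.026), Est-6 (-0.35) and trsn (0.0094), and with the block Est-6 (-0.042). The contrast with the sex difference then ranged from -0.18 to 0.11 for CG15930, -0.12 to 0.28 for msl-2 and -2.20 to 0.47 for CG30076. With 3 libraries a group, an exact permutation test of 1 gene could not go below 0.1.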

Other observations

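Sxl RNAi replicate 1 held RNA of digestive enzymes that the other libraries nearly lacked. The 11 genes, maltases, trypsins, Jonah proteases and the aspartic protease Bace, were chosen after their values were seen. Their summed level was 2934 CPM in that library, 17.6 and 10.7 CPM in Sxl RNAi replicates 2 and 3, and 18.1, 52.9 and 167 CPM in mCherry RNAi replicates 1, 2 and 3. Ovaries and testes without RNAi held between 3.44 and 26.6 CPM. Bace stood at 603 CPM in Sxl RNAi replicate 1 and at 0.733 and 0.615 CPM in replicates 2 and 3 (log2 fold change 3.52, adjusted p = 0.697 by edgeR). Send1, a gene of the sperm storage organs, was at 23.7 CPM in the same library and at most 2.60 CPM in the other 5. No gene named as changed is among the 11, and their part in the results was not tested beyond leaving that library out, which gave 19 genes past the threshold, 15 of them shared with the 21.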
